A study of Mus musculus with 6 samples.

Results

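Chromatin accessibility was examined at 10 immediate early response genes, Fos, Fosb, Fosl2, Jun, Junb, Jund, Egr1, Atf3, Ier2 and Myc. The members were the intervals of the deposited ATAC-seq table that overlap the body of 1 of these genes, or lie within 10 kb of 1 of its transcription start sites (TSSs), by the GENCODE vM1 annotation of mm9. By this rule, which used no measured value, 58 of the 39768 intervals were members. In ATAC-seq the transposase Tn5 cuts DNA not wrapped in nucleosomes, and the fragment ends counted in an interval are the measure of its accessibility. Nuclei came from skeletal muscle of C57BL/6 mice aged 7 weeks, with 50000 nuclei per library and 3 libraries per group. CTL mice were H2A.Z-1 flox/flox as well as H2A.Z-2 flox/flox without Cre (HSA CRE -), and libraries with the label H2A.Z dKO came from mice with these floxed alleles plus the Cre transgene (HSA CRE +). The study asked what part the histone variant H2A.Z has in transcription in post-mitotic muscle fibers, and this comparison addresses their chromatin accessibility. The floxed alleles are common to both groups, so CTL is not wild type, although the labels name it WT. The human skeletal actin promoter of the transgene drives Cre in post-mitotic muscle fibers, and nuclei of other cells in the muscle keep both genes. The labels name tibialis anterior muscle and sucrose ultracentrifugation, whereas the methods of the study describe hind limb muscles and a Dounce homogenizer. Nothing in the labels says that the libraries of a group came from separate mice, so the p-values below measure the spread between these libraries, which may be technical.

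Immediate early genes are induced within minutes of a stimulus, before any new protein is made. Serum response factor bound to CArG boxes, with ETS-domain partners, and CREB bound to cAMP response elements drive their transcription, and polymerase is known to wait near the TSS of many of them. Their products are mostly transcription factors: the Fos and Jun families form the AP-1 dimer, Egr1 is a zinc finger factor, Atf3 is a stress-induced bZIP factor, Myc is a bHLH factor of cell growth, and Ier2 is a small nuclear protein. In muscle, contraction, stretch and injury are known inducers. H2A.Z is a variant of histone H2A found in the nucleosomes that flank TSSs.

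The sequences of the accessible intervals show where these factors could bind. A CArG box is an A/T-rich core between CC and GG. The search found 9 CArG boxes in 6 member intervals of 4 genes, Fos, Fosb, Junb and Egr1. The first 4 sequences below hold those of Fos, Fosb and Junb, with the CArG box in capitals, each read 5′ to 3′ on the strand of its gene in mm9. They lie at chr12:86814353-86814625 on the plus strand, and at chr7:19895654-19895881, chr8:87500426-87500687 and chr8:87503860-87504159 on the minus strand. The last of these is the middle 300 bases of an interval of 359 bases.
Fos upstream interval: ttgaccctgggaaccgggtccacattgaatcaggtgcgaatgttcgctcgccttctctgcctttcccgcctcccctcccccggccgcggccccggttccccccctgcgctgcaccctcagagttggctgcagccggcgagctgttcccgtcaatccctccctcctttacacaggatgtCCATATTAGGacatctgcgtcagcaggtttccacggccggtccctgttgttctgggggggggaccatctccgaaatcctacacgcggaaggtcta
Fosb upstream interval: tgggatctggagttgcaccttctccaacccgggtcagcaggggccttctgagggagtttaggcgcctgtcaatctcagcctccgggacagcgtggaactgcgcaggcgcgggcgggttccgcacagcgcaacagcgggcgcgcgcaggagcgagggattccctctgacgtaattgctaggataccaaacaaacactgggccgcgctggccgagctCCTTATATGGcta
Junb downstream interval: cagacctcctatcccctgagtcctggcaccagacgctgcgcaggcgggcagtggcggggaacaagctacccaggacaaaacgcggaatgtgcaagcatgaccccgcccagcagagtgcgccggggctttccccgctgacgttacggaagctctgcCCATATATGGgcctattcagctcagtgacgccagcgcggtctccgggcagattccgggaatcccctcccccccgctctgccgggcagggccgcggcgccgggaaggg
Junb upstream interval: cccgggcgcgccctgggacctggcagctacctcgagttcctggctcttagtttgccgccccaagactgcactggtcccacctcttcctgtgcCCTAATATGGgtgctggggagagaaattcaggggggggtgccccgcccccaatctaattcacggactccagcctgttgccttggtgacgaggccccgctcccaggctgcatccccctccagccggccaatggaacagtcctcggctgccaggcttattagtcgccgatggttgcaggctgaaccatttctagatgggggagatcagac

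Positions are given from the annotated 5′ end of the gene, with negative values before it. The box of Fos starts at -309 and that of Fosb at -272. Junb has a box at -1450 and another at 2085, beyond its 3′ end, so that both lie outside its promoter interval. Egr1 has 5 boxes, 3 in 1 interval, at -407, -369 and -353, and 2 in the next, at -105 and -83. In windows of 300 bases around the interval midpoints, 6 of the 58 members (10.3%) had a CArG box, against 567 of all 39768 intervals (1.43%) and 1.08% of promoter intervals, which 39 of the 58 members are. Windows with at least 2 boxes numbered 7 among all intervals, and 2 of those 7 were the Egr1 intervals.

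The promoters of Fos and Junb just before their TSSs hold a TATA box (TATAAA), printed in capitals here at chr12:86814705-86814839 on the plus strand and chr8:87502618-87502886 on the minus strand. Both boxes start close to the 5′ end, at -33 in Fos and -30 in Junb.
Fos core promoter: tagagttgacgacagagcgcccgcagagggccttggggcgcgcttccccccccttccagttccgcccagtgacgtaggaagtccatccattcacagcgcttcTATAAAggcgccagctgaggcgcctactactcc
Junb core promoter: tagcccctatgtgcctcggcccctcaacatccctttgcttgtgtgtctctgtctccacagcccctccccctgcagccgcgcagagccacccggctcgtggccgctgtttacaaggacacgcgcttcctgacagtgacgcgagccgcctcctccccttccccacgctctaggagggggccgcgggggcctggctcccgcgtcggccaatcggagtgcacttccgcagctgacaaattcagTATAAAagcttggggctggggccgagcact

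TATAAA was found in 8 of the 58 windows (13.8%), against 7.31% of all intervals and 4.42% of the 20827 promoter intervals, those centred at most 1 kb from a TSS of any gene. These windows belong to Fos, Fosb, Junb and Myc, and neighbouring windows can share a site. Inside the member intervals there are 2 matches to TATAAA, those of Fos and Junb. The promoter of Atf3 has none in the stretch shown, the 300 bases before its 5′ end at chr1:193007220-193007519 on the minus strand. It holds 6 matches to GGGCGG on either strand, the Sp1 site, in capitals, of which 2 overlap.
Atf3 promoter: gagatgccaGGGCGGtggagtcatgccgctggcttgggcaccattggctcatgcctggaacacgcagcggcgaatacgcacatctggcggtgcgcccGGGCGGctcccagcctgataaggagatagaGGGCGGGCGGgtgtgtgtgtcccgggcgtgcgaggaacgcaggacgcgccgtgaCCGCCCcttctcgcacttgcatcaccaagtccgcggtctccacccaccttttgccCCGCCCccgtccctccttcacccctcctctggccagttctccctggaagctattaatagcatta

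GGGCGG was found in 36 of the 58 windows (62.1%) and in all 10 genes, against 41.5% of all intervals and 64.7% of promoter intervals. The cAMP response element TGACGTCA was found in 5 windows (8.62%), against 1.73% of all intervals and 2.69% of promoter intervals. Windows of neighbouring intervals share sites, and inside the intervals there are 2 such elements, of Ier2 and Jund. The element of Ier2 starts at -45, and that of Jund at 996, between its 2 annotated TSSs, at chr8:73222624-73222651 on the plus strand. The AP-1 site, TGACTCA or on its other strand TGAGTCA, was found in 2 windows (3.45%), of Fosl2 and Ier2, against 7.69% of all intervals and 3.5% of promoter intervals. That of Fosl2, the Fos-family gene whose product Fra-2 forms AP-1, starts at -618, within chr5:32438200-32438259 on the plus strand. Both motifs are in capitals.
Jund cAMP response element: cccacccccaTGACGTCAacccacaatg
Fosl2 AP-1 stretch: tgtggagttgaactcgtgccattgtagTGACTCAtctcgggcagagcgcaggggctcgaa

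The ETS site CCGGAAG was in 2 windows (3.45%), against 9.11% of all intervals and 14.6% of promoter intervals. The Egr1 site GCGTGGGCG was in 2 (3.45%), against 0.727% and 1.18%, and the E-box CACGTG, which Myc binds, in 0 of 58, against 7.27% and 9.15%. All motifs were searched on both strands, and a match says only that these letters are present.

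The map of intervals by distance from the 5′ end shows how the genes differ in layout. Of the 58 members, 27 were own-promoter intervals, with their midpoint within 1 kb of a TSS of the member gene, and all 10 genes had at least 1. A further 12 were at the promoter of a neighbouring gene, 4 lay elsewhere in a member gene and 15 were distal. Myc had 7 own-promoter intervals along its 5 annotated TSSs, Ier2 had 4, of which several overlap, and Fos, Egr1 and Atf3 had 3 each. Fosl2 and Jund had 2 each, while Fosb, Jun and Junb had a single one. Of 10283 protein-coding genes with an interval at their promoter, 22.3% had at least 3, against 5 of the 10 member genes. The width of members ran from 16 to 744 bp, their median being 160 bp (137 bp over all intervals), and 12 were narrower than the 73 bp over which the peak caller spread each fragment end. A total of 12 members fall into 5 groups of overlapping intervals, and fragment ends where they overlap count more than once.

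**Figure D1:**
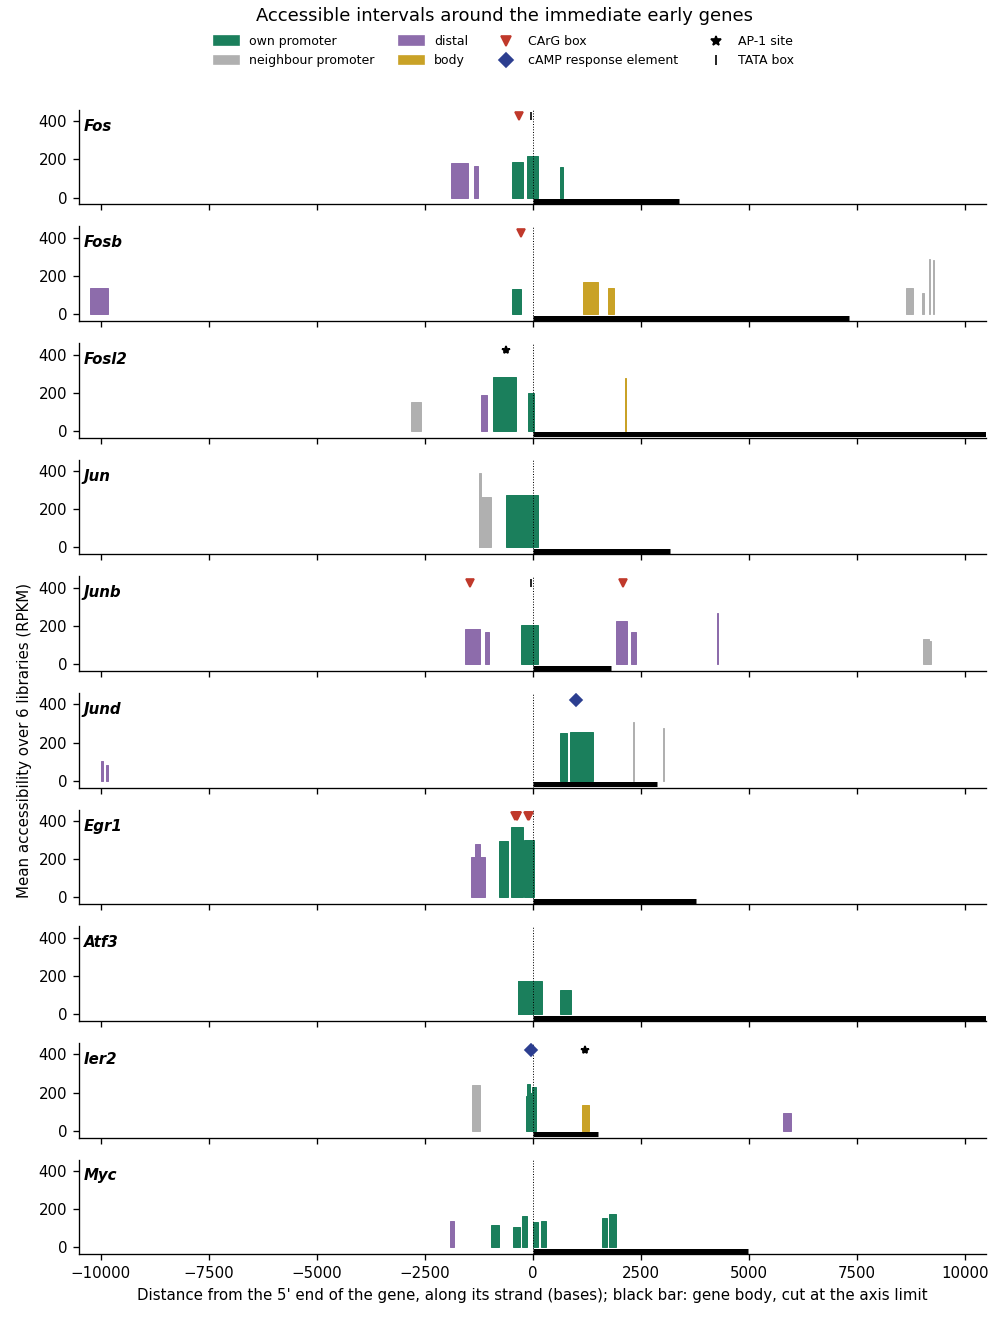
Mean accessibility over the 6 libraries (RPKM, y axis) of each member interval, drawn at its width by distance from the 5′ end of its gene in bases (x axis), with colors for the class of interval and symbols for motif matches inside the intervals. Egr1 has its tallest interval and its CArG boxes just before its 5′ end, whereas the Junb boxes flank the gene and the own-promoter intervals of Jund lie inside it.

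Levels were compared per length, as RPKM (counts per kb of interval, scaled to library sizes with TMM factors), at the lead interval of each gene, the own-promoter interval with the most counts. Egr1 had the highest level, 370 ± 16.4 RPKM (SD over all 6 libraries), above 99.7% of promoter intervals. Fosl2 followed with 283 ± 53.0, Jun with 274 ± 32.6 and Jund with 255 ± 29.6, all above at least 94.5% of promoter intervals. Fos had 220 ± 30.9 and Junb 203 ± 16.0, in the upper part of the range. Ier2, Myc and Atf3 were close together, at 184 ± 24.5, 175 ± 16.5 and 174 ± 12.5 RPKM. Fosb had the lowest level, 131 ± 21.4 RPKM, above 48.4% of promoter intervals. Neighbours in this order overlapped between libraries, except Atf3 and Fosb, whose ranges of 162 to 196 and 96.8 to 151 RPKM did not. Egr1 and Fosl2 overlapped only through H2A.Z dKO replicate 1, and without it had 358 to 370 and 244 to 271 RPKM. The median over the 10 genes was 212 RPKM, against 138 RPKM for the lead intervals of the 10283 protein-coding genes. Their lead intervals were also wider, with a median of 336 bp against 285 bp, and a level per bp of called interval depends on how widely it was called.

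**Figure D2:**
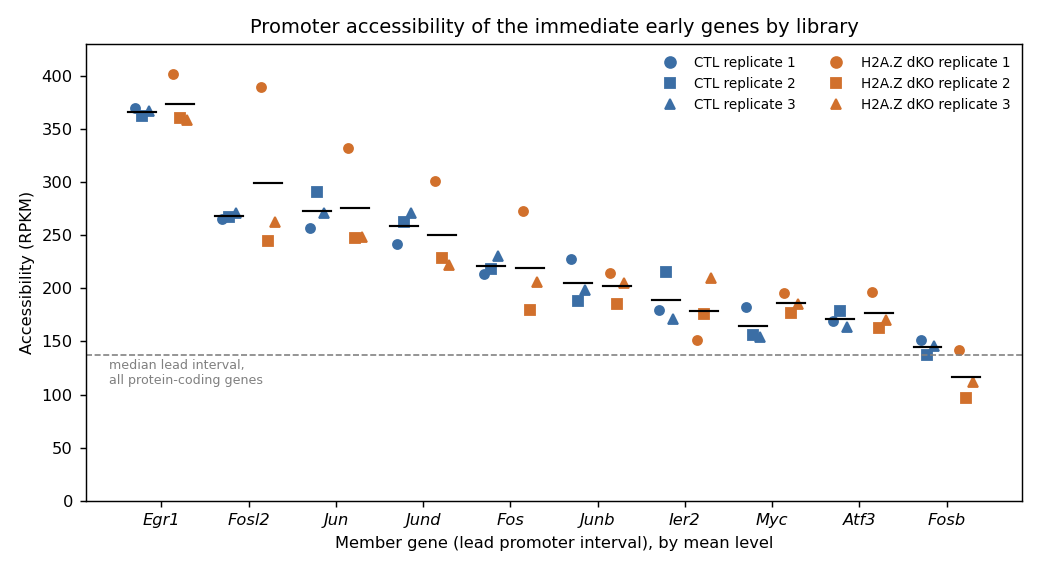
Accessibility (RPKM, y axis) of the lead interval of each member gene in every library, with colors for groups, symbols for replicates, black lines for group means and a dashed line at the median lead interval of protein-coding genes. Egr1 is highest at 358 to 402 RPKM and Fosb lowest, and H2A.Z dKO replicate 1 lies above the other libraries at 7 genes, Fosl2, Jun, Jund, Fos, Egr1, Atf3 and Myc.

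Before the groups are compared, 3 facts of the libraries bear on the comparison. The total count per library ran from 3520008 to 6117245. In the segment of H2afz (H2A.Z-1) that the loxP sites flank, exons 2 to 4, the 2 intervals summed to 79, 69 and 33 counts in the CTL libraries and to 57, 52 and 64 counts in H2A.Z dKO, or 12.4 ± 2.83 and 11.3 ± 1.28 CPM (SD, n = 3). These values do not tell the groups apart, and 0 intervals overlap the floxed exons 4 to 5 of H2afv (H2A.Z-2), so each direction rests on the labels, and H2A.Z dKO below means the libraries with that label. H2A.Z dKO replicate 1 stands apart, with a chi-square per interval of 3.66 to 4.80 against the other libraries, where the other pairs gave 1.45 to 2.13. It had 77.0% of its counts in promoter intervals, against 73.2% to 74.9% in the other 5 libraries. Results that rest on it are therefore given with and without it. Of the cell type markers, 8 of 13 muscle fiber genes had an interval at their promoter, with summed levels of 361 to 488 CPM in CTL and 377 to 502 in H2A.Z dKO, while Myh1, Myh2, Mylpf, Atp2a1 and Eno3 had none. The 5 of 7 endothelial genes with an interval summed to 71.3 to 82.2 CPM in CTL and 56.5 to 66.1 in H2A.Z dKO, which did not overlap, Pecam1 and Emcn having none. For fibroblasts, 5 of 7 genes gave 91.6 to 112 and 106 to 121 CPM, and 0 of 7 macrophage genes had an interval. A single gene each gave 27.9 to 45.9 and 41.3 to 51.1 CPM for satellite cells (1 of 3) and 12.2 to 16.7 and 9.47 to 14.1 CPM for smooth muscle (1 of 4). In bulk nuclei, fewer nuclei of a type and lower accessibility per nucleus cannot be told apart, and the part of these markers in the results was not tested.

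No difference between the groups passed the test at any member, and most were bounded within a 2-fold change. None of the 58 intervals had an adjusted p under 0.05 (quasi-likelihood test of edgeR, adjusted by Benjamini-Hochberg over all intervals), where the percentage called among all 39768 intervals was also 0, and the smallest adjusted p of a member was 0.972. The log2 fold changes ran from -0.37 to 0.81, with 27 positive and 31 negative values and a median of -0.017, against 0.012 over all intervals. At an unadjusted p under 0.05 there were 3 members (5.17%), beside 4.95% of all intervals. Of these 2 were higher, beside 2.64% of all intervals, and 1 lower, beside 2.31%, and DESeq2 gave 1 member, beside 1.9% of all intervals. CPM of the groups did not overlap in 7 members (12.1%), beside 10.8% of all intervals. Of these 4 were higher, beside 5.22% of all intervals, and 3 lower, beside 5.63%. Both shares are near the background. Leaving out CTL replicate 1, 2 or 3 or H2A.Z dKO replicate 3 gave 1 member at an unadjusted p under 0.05 each, beside 4.92%, 4.21%, 3.18% and 5.6% of all intervals in those fits. Leaving out H2A.Z dKO replicate 2 gave 4, beside 5.38%, and leaving out H2A.Z dKO replicate 1 gave 8, beside 7.95%. In a column of the authors, 29 of the 58 members (50%, against 38.7% of all intervals) are listed for both groups, while 16 (27.6%, against 43.4%) belong to H2A.Z dKO alone and 13 (22.4%, against 17.9%) to CTL alone. An interval listed for 1 group may have entered the table through the group in which its peak was called, although how the listing was made is not certain. A difference in that direction is therefore a description and no test. Of the 29 listed for both, 2 had an unadjusted p under 0.05, beside 2.84% of the 15376 intervals so listed, and 5 did not overlap, beside 9.85%. At the 27 own-promoter intervals, 0 had an adjusted p and 0 an unadjusted p under 0.05 in edgeR, the latter beside 3.83% of all promoter intervals, with 14 positive and 13 negative values and a median of 0.0074. Without H2A.Z dKO replicate 1, 3 of the 27 had an unadjusted p under 0.05, all lower (11.1%, beside 6.51% of all promoter intervals), with 8 positive and 19 negative values and a median of -0.049. Of all 20827 promoter intervals in that fit, 384 were higher and 971 lower below that p, 59.6% had a negative value, and the median was -0.039. All 27 had a 95% confidence interval within a 2-fold change, and 23 within a 1.5-fold change. Of all 58, 56 (96.6%) lay within a 2-fold change, against 91.4% of all intervals.

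Summed over all members, accessibility was 2251 CPM in CTL and 2242 CPM in H2A.Z dKO. By library the sums were 2200, 2310 and 2242 CPM in CTL and 2454, 2074 and 2198 CPM in H2A.Z dKO replicates 1, 2 and 3. The highest and the lowest sum both belong to the H2A.Z dKO group, so the groups overlap. Without H2A.Z dKO replicate 1, the mean of that group was 2136 CPM. Its remaining sums, 2074 and 2198 CPM, were below all CTL sums, of which the lowest was 2200 CPM.

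**Figure D3:**
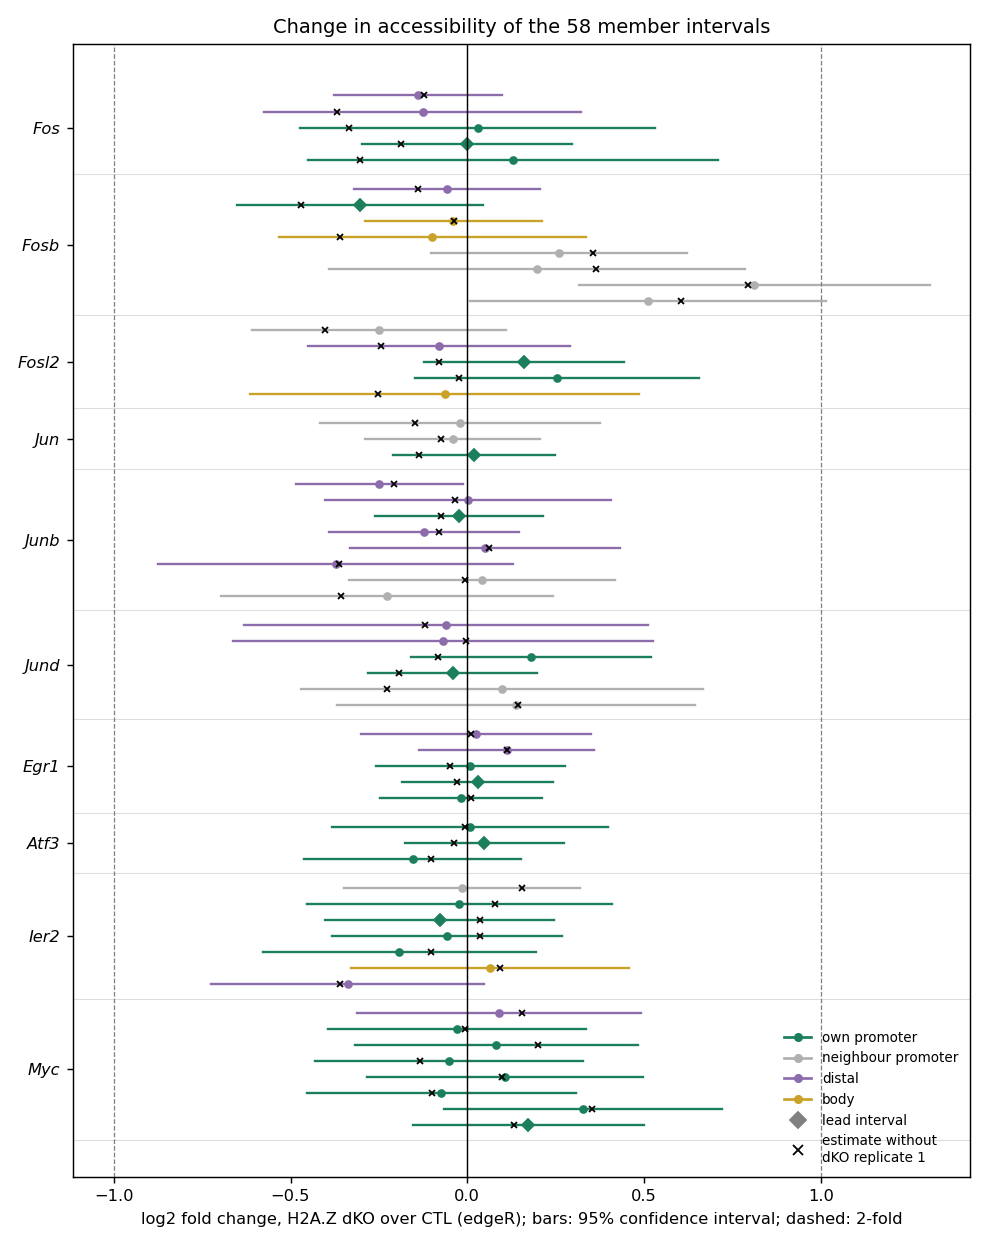
Log2 fold change of each of the 58 member intervals in H2A.Z dKO over CTL (x axis) with its 95% confidence interval, grouped by gene (y axis) and ordered along the gene, with crosses for the estimate without H2A.Z dKO replicate 1. Most intervals cross 0 and stay inside the dashed lines of a 2-fold change, and the crosses of the Fos, Fosl2, Jun and Jund promoters lie to the left of the estimates from all libraries.

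The Fos family comes first. Fos encodes a rapidly induced AP-1 subunit. Its lead interval, chr12:86814705-86814956, which holds the TATA box and TSS, had 214, 218 and 230 RPKM in CTL and 273, 180 and 206 RPKM in H2A.Z dKO replicates 1, 2 and 3. Replicate 1 of H2A.Z dKO was the highest library and replicate 2 the lowest, and the log2 fold change was -0.0013 (standard error 0.14), and -0.19 without H2A.Z dKO replicate 1. The upstream interval with the CArG box had 143, 224 and 197 RPKM in CTL and 274, 147 and 147 RPKM in H2A.Z dKO. Replicate 1 thus departed from the rest of its group in both groups, low in CTL and high in H2A.Z dKO, and the log2 fold change of 0.029 (standard error 0.23) became -0.34 without H2A.Z dKO replicate 1 (unadjusted p = 0.029 from edgeR, beside 7.95% of all intervals with an unadjusted p under 0.05 in that fit). The intron interval 671 bases after the 5′ end had the same pattern, with 250 RPKM in H2A.Z dKO replicate 1 and 118 to 194 RPKM in the other libraries. All 3 own-promoter intervals of Fos were highest in that library, and so was the narrow distal interval Peak_27942, with 203 RPKM there and 113 to 184 RPKM elsewhere (log2 fold change -0.13, and -0.37 without that library). The distal interval at -1687 was not, with 168 RPKM there and 172 to 202 RPKM elsewhere.

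Fosb, a close relative of Fos, had the most negative log2 fold change of the 10 lead intervals. This interval, chr7:19895654-19895881 with the CArG box, had 151, 138 and 145 RPKM in CTL and 142, 96.8 and 112 RPKM in H2A.Z dKO. The groups overlapped through H2A.Z dKO replicate 1, and the log2 fold change was -0.30 (standard error 0.17, edgeR adjusted p = 0.972), with a 95% confidence interval from -0.65 to 0.044. It was -0.47 without that replicate (adjusted p = 0.479 from edgeR). The interval is listed for CTL only, the group in which it is high, and these values are a description. The intron intervals of Fosb, 1340 and 1811 bases after its 5′ end, had log2 fold changes of -0.040 and -0.098, and the distal interval about 10 kb before it -0.058. Without H2A.Z dKO replicate 1 these values were -0.036, -0.36 and -0.14.

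The 2 members with the smallest unadjusted p among those higher in the H2A.Z dKO group do not belong to Fosb itself. They lie beyond its 3′ end, at the promoter of the lincRNA gene Gm17589. Peak_14662, chr7:19886190-19886211, had 32, 19 and 15 counts in CTL and 47, 35 and 43 in H2A.Z dKO, or 238, 187 and 193 against 375, 344 and 383 RPKM. Every H2A.Z dKO library was above every CTL library. The log2 fold change was 0.81, with a standard error of 0.24 and an edgeR adjusted p = 0.972. This interval is listed for H2A.Z dKO only, the group in which it is high, so its difference is given as a description. Peak_14661, chr7:19886110-19886133, listed for both groups, had 253, 207 and 236 against 292, 298 and 409 RPKM, with a log2 fold change of 0.51 (unadjusted p = 0.046 from edgeR), and 0.33 without H2A.Z dKO replicate 3. Its unadjusted p was not under 0.05 without that library, without any 1 of the CTL libraries, with DESeq2, with limma voom or with the replicate block. These intervals are only 22 and 24 bp wide. The wider interval of this promoter, Peak_14664 with 162 bp and a mean of 110 counts, had 124, 126 and 124 RPKM in CTL and 130, 162 and 157 RPKM in H2A.Z dKO. It did not overlap either, at a smaller log2 fold change of 0.26 (standard error 0.17), while the fourth, Peak_14663, overlapped at 0.20 (standard error 0.28).

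**Figure D4:**
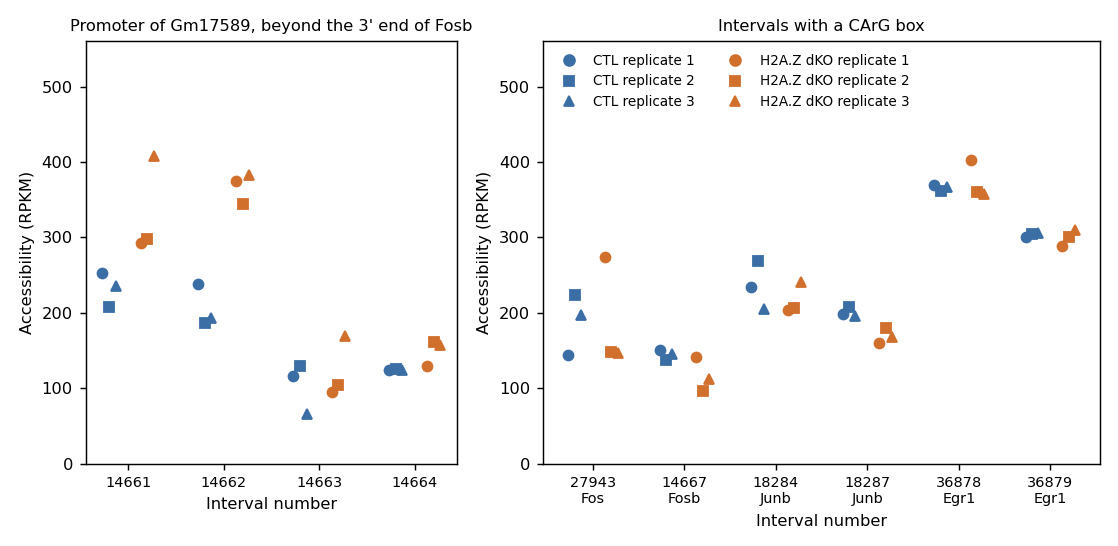
Accessibility (RPKM, y axis) by library of the 4 intervals at the Gm17589 promoter beyond the 3′ end of Fosb (left) and of the 6 intervals with a CArG box (right), named by interval number and gene on the x axis, with colors for groups and symbols for replicates. Groups separate in Peak_14661, Peak_14662 and Peak_14664 on the left and in Peak_18287 on the right, where the Fos interval Peak_27943 spreads over a wide range in both groups.

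Fosl2 was also high in H2A.Z dKO replicate 1. Its lead interval, chr5:32437934-32438451, had 265, 267 and 271 RPKM in CTL, and 390, 244 and 262 RPKM in H2A.Z dKO. The interval at its TSS, 43 bases before the 5′ end, likewise had 176, 187 and 179 against 288, 164 and 192 RPKM. The log2 fold changes of 0.16 and 0.25 (standard errors 0.14 and 0.19) became -0.079 and -0.022 without that library. An intron interval of 17 bp, 2142 bases after the 5′ end, had -0.064 (standard error 0.26). The neighbouring promoter of Gm10463, chr5:32436039-32436261, had 172, 146 and 177 RPKM in CTL against 165, 102 and 146 RPKM, at -0.25 (standard error 0.17), and -0.40 without H2A.Z dKO replicate 1.

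The Jun family supplies the partners of Fos in AP-1, and Jun has the widest member interval. This interval, chr4:94718785-94719528, 744 bp with a mean of 1013 counts, had 257, 291 and 271 RPKM in CTL and 332, 247 and 248 RPKM in H2A.Z dKO. The difference was 0.019 on the log2 scale (standard error 0.11), and -0.14 without H2A.Z dKO replicate 1, again the highest library. The neighbouring promoter of BC042782, chr4:94719873-94720152, had 267, 284 and 259 against 273, 291 and 223 RPKM, where H2A.Z dKO replicate 1 was not the highest, but in the narrow interval Peak_8215 that overlaps it, with 411, 433 and 328 against 447, 395 and 319 RPKM, it was.

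Junb, whose product is an AP-1 subunit of weaker activity than Jun, did not share this pattern. Its lead interval, chr8:87502486-87502886, had 228, 188 and 198 RPKM in CTL and 215, 186 and 205 RPKM in H2A.Z dKO, with a log2 fold change of -0.023 (standard error 0.11). The upstream CArG interval of Junb, Peak_18287 at chr8:87503830-87504188, is the member with the smallest unadjusted p among those lower in the H2A.Z dKO group. It had 199, 207 and 196 RPKM in CTL and 159, 180 and 168 RPKM in H2A.Z dKO, so that every H2A.Z dKO library was below every CTL library. The log2 fold change was -0.25 (standard error 0.11, 95% confidence interval -0.49 to -0.012, unadjusted p = 0.040, adjusted p = 0.972 from edgeR), and -0.21 without H2A.Z dKO replicate 1. Its unadjusted p was not under 0.05 without H2A.Z dKO replicate 3, without any 1 of the CTL libraries, with DESeq2, with loess offsets or with the replicate block. The downstream CArG interval had 234, 268 and 205 against 204, 207 and 241 RPKM, which overlap, at -0.12 (standard error 0.13), and -0.020 without CTL replicate 2. The most negative value of all members, -0.37 (standard error 0.24), belonged to an interval of 24 bp beyond the 3′ end of Junb, with 334, 307 and 271 against 234, 189 and 286 RPKM, which overlap. Over the 6 intervals with a CArG box, 2 log2 fold changes were positive and 4 negative, from -0.30 to 0.029, and without H2A.Z dKO replicate 1 there were 1 positive and 5 negative values, from -0.47 to 0.0097.

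Jund, the Jun-family member known for its steady expression in resting cells, has its lead interval over its coding sequence, chr8:73222512-73223036. It had 242, 263 and 271 RPKM in CTL and 301, 228 and 222 RPKM in H2A.Z dKO, with a log2 fold change of -0.041 (standard error 0.12). H2A.Z dKO replicate 1 was the highest library and the other 2 of its group the lowest, and without replicate 1 the value was -0.19 (unadjusted p = 0.0205 from edgeR). The interval just before it had 353 RPKM in H2A.Z dKO replicate 1 and 221 to 247 RPKM in the other libraries. Its other 4 intervals, of 16 to 55 bp and with mean counts of 21.8 to 30, had log2 fold changes from -0.070 to 0.14.

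Egr1 and Myc encode factors outside AP-1. The lead interval of Egr1, chr18:35020362-35020632 with 3 CArG boxes, had 370, 362 and 367 RPKM in CTL and 402, 360 and 358 RPKM in H2A.Z dKO, with a log2 fold change of 0.029 (standard error 0.10, 95% confidence interval -0.19 to 0.24), and -0.028 without H2A.Z dKO replicate 1. The interval at its TSS with the other 2 boxes had 300, 304 and 306 against 289, 301 and 310 RPKM, with -0.018 (standard error 0.11). Among the 10 lead intervals, that of Egr1 had the smallest standard error, and its libraries overlapped between groups. The other 3 intervals of Egr1 had values from 0.0090 to 0.11. Myc, a driver of growth, had 182, 156 and 154 RPKM in CTL and 195, 177 and 186 RPKM in H2A.Z dKO at its lead interval, chr15:61818708-61818876, 185 bases before an internal TSS, with a log2 fold change of 0.17 (standard error 0.16). This interval is listed for H2A.Z dKO only, the group in which it is high. Beside it, the interval of 113 bp 1655 bases after the 5′ end had 145, 134 and 125 against 163, 195 and 153 RPKM, which do not overlap (log2 fold change 0.33, standard error 0.19, unadjusted p = 0.098 from edgeR). The 5 own-promoter intervals of Myc further upstream had values from -0.073 to 0.11.

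Atf3 and Ier2 complete the set. Atf3 had 170, 179 and 164 RPKM in CTL and 196, 162 and 170 RPKM in H2A.Z dKO at its lead interval, chr1:193006996-193007552, with a log2 fold change of 0.047 (standard error 0.11), and -0.038 without H2A.Z dKO replicate 1. Its intron interval 764 bases after the 5′ end had 134, 128 and 143 against 113, 124 and 127 RPKM, which do not overlap, at -0.15 (standard error 0.15, unadjusted p = 0.306 from edgeR). Ier2 had 180, 215 and 171 RPKM in CTL and 151, 176 and 210 RPKM in H2A.Z dKO at its lead interval, chr8:87186702-87186910, which holds its cAMP response element, with -0.078 (standard error 0.16). It was the only lead interval in which H2A.Z dKO replicate 1 was the lowest library, and without that library the value was 0.035. Peak_18239, chr8:87180763-87180946, beyond the 3′ end of Ier2, had 97.9, 107 and 109 against 84.9, 89.4 and 73.5 RPKM, which do not overlap (log2 fold change -0.34, standard error 0.19). It too is listed for CTL only. The other 5 intervals of Ier2, of which 3 overlap the lead interval, had values from -0.19 to 0.064.

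The intervals nearest to each gene, the widest of any that overlap, were then summed by library. In H2A.Z dKO replicate 1 the sum over the mean of the other 5 libraries was 1.46 for Fosl2, 1.28 for Jund, 1.26 for Jun and 1.25 for Fos. It was 1.08 for Fosb and Atf3, 1.05 for Egr1, 1.03 for Myc, 0.953 for Junb and 0.867 for Ier2. It had the highest sum at 5 genes, these 4 and Atf3, and the highest lead interval at 7, these 5, Egr1 and Myc. It was the highest of the 6 libraries in 13 of the 27 own-promoter intervals (48.1%), against 37.1% of all promoter intervals and 10.6% of intervals away from promoters. Its median deviation from the mean of the libraries, on the log2 CPM scale, was 0.12 in the own-promoter intervals and 0.082 in all promoter intervals. In promoter intervals of the lowest, middle and highest GC content, 6962, 6933 and 6932 intervals, the deviation was -0.016, 0.077 and 0.18. The lead intervals of Fosl2, Jund, Jun and Fos have 68.1%, 70.1%, 64.7% and 63.1% GC, those of Egr1, Atf3 and Junb 69.0%, 66.1% and 65.1%, and those of Fosb, Myc and Ier2 62.7%, 59.8% and 52.6%. These are values of the lead intervals alone, whereas the ratios above cover all intervals summed. The part of GC content in these differences between genes was not tested.

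**Figure D5:**
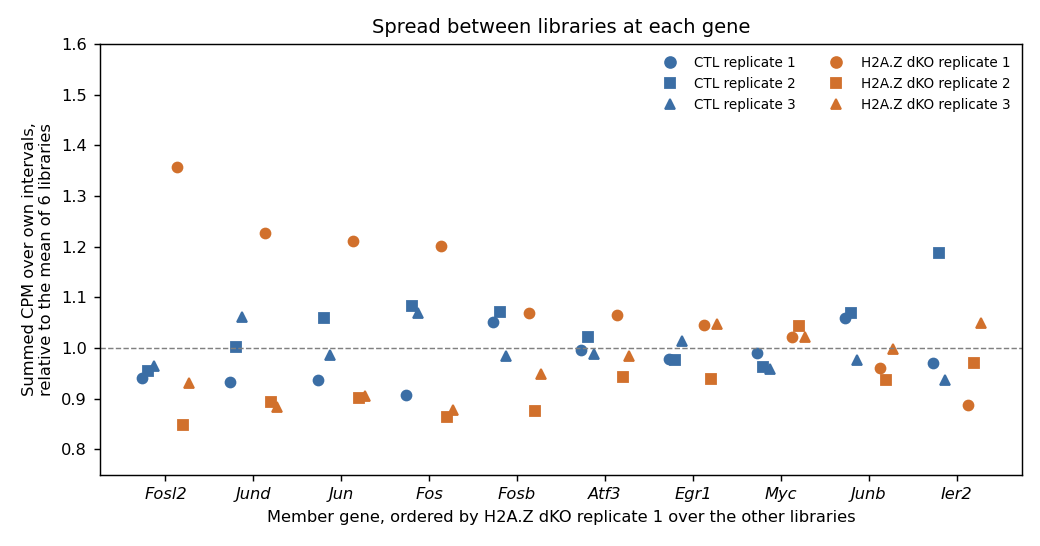
Summed CPM of the intervals nearest to each member gene in every library, divided by the mean of the 6 libraries (y axis, which does not start at 0), with genes ordered by H2A.Z dKO replicate 1 over the other libraries. H2A.Z dKO replicate 1 is above the other libraries at Fosl2, Jund, Jun, Fos and, by less, Atf3, and at Myc all 3 H2A.Z dKO libraries lie above all 3 CTL libraries.

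Myc was the only 1 of the 10 genes whose sums did not overlap between groups, where single intervals did not overlap in 10.8% of cases. By the column of the authors, the 8 intervals summed comprise 4 shared by CTL and H2A.Z dKO, 3 of H2A.Z dKO alone and 1 of CTL alone. The part of this listing in the separation was not tested. The sums of Myc were 151, 147 and 146 CPM in CTL and 156, 159 and 156 CPM in H2A.Z dKO, with a difference of 0.084 on the log2 scale. For the other 9 genes the sums overlapped, with log2 ratios from -0.10 for Fosb and Junb to 0.13 for Fosl2. Without H2A.Z dKO replicate 1, the ratios of 8 genes were negative, from -0.23 for Fos to -0.031 for Ier2, and those of Egr1 and Myc were 0.0057 and 0.089. In that fit 39 of the 58 members (67.2%) had a negative log2 fold change, beside 49.7% of all intervals and 59.6% of all promoter intervals, with a median of -0.061. Unadjusted p was under 0.05 in 8 members (13.8%), beside 7.95% of all intervals. The 3 higher ones, beside 1688 of all 39768 intervals, are at the Gm17589 promoter. There were 5 lower ones, beside 3.71% of all intervals. They are the lead intervals of Fosb and Jund, the CArG intervals upstream of Fos and Junb, and the promoter of Gm10463 near Fosl2. Of these 8, 6 are listed for both groups, and Peak_14662 and the Fosb lead interval are listed only for the group in which they are high. Of the 58, 0 had an adjusted p under 0.05 (edgeR, smallest 0.479).

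The 3 lists of related genes, written with earlier results of these data known, were read from the fit of all 6 libraries at their promoter intervals. Of 40 other immediate early genes, 36 had an interval, and 0 of 92 intervals had an adjusted p under 0.05. At an unadjusted p under 0.05, the list had 0 higher and 2 lower intervals, with a median log2 fold change of 0.00085. The smallest p belonged to Klf4, a zinc finger factor, among the higher ones (0.23, standard error 0.12, unadjusted p = 0.068 from edgeR) and to Per1, the light- and stimulus-induced clock gene, among the lower ones (-0.34, standard error 0.14, unadjusted p = 0.027 from edgeR). Without H2A.Z dKO replicate 1 these values were 0.14 and -0.18. Of 45 upstream regulators, such as Srf, Creb1 and the kinases that activate them, 38 had an interval, and 0 of 94 intervals had an adjusted p under 0.05. Here 1 was higher and 0 lower below an unadjusted p of 0.05, with a median of 0.030. The smallest p among the lower ones was at Mapk14, the stress kinase p38 alpha (-0.21, standard error 0.10, unadjusted p = 0.054 from edgeR). Of 27 AP-1 partners and related bZIP genes, 20 had an interval, and of 55 intervals 0 had an adjusted p under 0.05, with 0 higher and 2 lower members of the list below an unadjusted p of 0.05 and a median of 0.026. The smallest p were at Nfe2l1 (0.64, standard error 0.32, unadjusted p = 0.057 from edgeR), in an interval of 5 to 24 counts that had 1.12 without CTL replicate 2 and 0.42 without CTL replicate 3, and Creb3l2 (-0.21, standard error 0.097, unadjusted p = 0.042 from edgeR). The shares at an unadjusted p under 0.05 were 2.17%, 1.06% and 3.64% in the 3 lists, beside 3.83% of all promoter intervals.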

How the data were processed

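Per the submitters' processing notes and the methods, the authors trimmed reads with Trimmomatic, aligned them to mm9 with Bowtie2 (Bowtie in the methods), removed PCR duplicates with Picard, handled files with SAMtools and bedtools, moved fragment ends to correct for Tn5 binding, and called peaks with MACS2. They deposited raw counts of fragment ends per union interval and library. The deposited columns of their own DESeq2 comparison (log2 fold change, its standard error, statistic, p-value, adjusted p-value and mean of scaled counts) were not used, and 0 per-sample columns were left unused. The header is split by spaces and lacks 1 name. By the methods, regions found in all 3 replicates of a group were merged over both groups, whereas the deposited table is named as counts in pooled peaks, so how an interval came to be listed for a group is not certain. Starts were read as 0-based and are printed 1-based.

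Intervals were annotated with GENCODE vM1, and sequences were read from mm9. Counts of all 39768 intervals were tested with the robust quasi-likelihood test of edgeR 4.0.16 under R 4.3.3, without a block. TMM factors were 0.971 to 1.02, p-values were adjusted by Benjamini-Hochberg and the threshold was 0.05. Standard errors were taken from the log2 fold change and the F statistic (its absolute value over the root of F). CPM and RPKM use TMM-scaled library sizes, and RPKM the interval width. Python 3.11.15 with pandas 2.3.3 and matplotlib 3.10.9 handled tables and plots, and the fit was tested on simulated data. Counts per interval ran from 12 to 1408 in the members, and remaining PCR copies are not covered by the errors given.

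The members and lists (other immediate early genes, upstream regulators, AP-1 partners, markers of 6 cell types) were chosen with earlier results of these data known, so no p is given for a sum or list. Named are every member gene with its lead interval, the 2 members with the smallest p in each direction, and the interval with the smallest p in each direction in each gene list. A single such interval, among the upstream regulators, is not reported here. The other intervals of the members were described after their values were seen. Alternatives were DESeq2 1.42.0, limma 3.58.1 voom, median-of-ratios (RLE) factors, total counts, loess offsets, a mean count of at least 20, a replicate block, widths extended by 73 bp, other motif windows each library left out and, chosen after seeing the data, only the intervals listed for both groups.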

Additional observations from a re-analysis of the deposited data

How the results depend on the processing

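No alternative fit gave any interval an adjusted p under 0.05. The count of members at an unadjusted p under 0.05 was 1 with DESeq2, beside 1.9% of all intervals, and 1 to 8 with a library left out, beside 3.18% to 7.95%. With only intervals listed for both groups, an alternative chosen after seeing the data, it was 2 of 29, beside 2.84% of all intervals so listed. The replicate numbers did not pair the libraries, since same-numbered libraries had correlations of -0.121, -0.0632 and -0.0502, and a fit with the replicate block gave 1 member, beside 4.42% of all intervals, against 3 without it. The median log2 fold change of the members ran from -0.061 without H2A.Z dKO replicate 1 to 0.025 without CTL replicate 2. Of 23 named intervals, 13 kept their direction and 10 did not in 13 alternative fits, or 12 for Nfe2l1, which the count filter drops. The Fos lead interval had 0.00098 with DESeq2, 0.0027 with RLE factors and 0.0092 with loess offsets, its CArG interval -0.0068 with the replicate block, and the Egr1 TSS interval 0.0040 with loess offsets. With a library left out, the lead intervals ran from -0.19 to 0.12 for Fos, -0.079 to 0.28 for Fosl2, -0.14 to 0.091 for Jun, -0.080 to 0.063 for Junb, -0.19 to 0.028 for Jund, -0.028 to 0.054 for Egr1, -0.038 to 0.10 for Atf3 and -0.22 to 0.035 for Ier2, the Fos CArG interval from -0.34 to 0.18 and the Egr1 TSS interval from -0.056 to 0.0097. Summed over intervals nearest to a member TSS, the CPM was 1990 in CTL and 1982 in H2A.Z dKO, and with the widest of overlapping intervals 2095 in CTL. Per width extended by 73 bp, the lead intervals had 291 (Egr1), 223 (Jund), 172 (Junb), 171 (Fos), 153 (Atf3), 136 (Ier2), 122 (Myc) and 99.0 (Fosb) RPKM, so that Jun came before Fosl2, Junb before Fos, and Atf3 before Ier2 and Myc. In windows from 250 bases before to 50 after the TSSs of protein-coding genes, 1.38% had a CArG box (Egr1 among the members), 2.03% TGACGTCA, 4.37% an AP-1 site, 10.6% CCGGAAG, 40.3% GGGCGG, 7.29% CACGTG and 11.3% TATAAA, and with 150 bases on each side these shares were 1.17%, 1.82%, 4.0%, 10.2%, 40.9%, 6.75% and 9.34%. The causes of these shifts were not tested. Narrow intervals of 20 to 50 counts limit the precision of single members.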

Other observations

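The products of the Fos and Jun families bind the AP-1 site. It was present in 3057 of the 39768 windows of 300 bases around the interval midpoints. Intervals with a motif are here those with it in the window, so the motif may lie outside the interval. The AP-1 site is given here as the site of the Fos and Jun products among the members, and was chosen after the values of all 8 motifs were seen. In H2A.Z dKO, 134 of the intervals with the site had a higher and 47 a lower count with an unadjusted p below 0.05 (5.92%, against 4.87% of intervals without the site), and 0 had an adjusted p under 0.05 in edgeR. Their median log2 fold change was 0.049, against 0.0095 without the site. Over all intervals, 1051 had a higher and 919 a lower count below that p. Without H2A.Z dKO replicate 1, 329 of the intervals with the site had a higher and 44 a lower count below that p (12.2%, against 7.6%), still with 0 at an adjusted p under 0.05, and the median was 0.12, against -0.0065. Over all intervals these counts were 1688 and 1475. Of all intervals, 43.4% are listed for H2A.Z dKO alone and 17.9% for CTL alone, with median log2 fold changes of 0.11 and -0.13 with all libraries. Motif counts were not split by these lists, so their direction is a description and no test. The median deviation of the intervals with the site from the mean of the libraries, on the log2 CPM scale, was -0.022, 0.029 and -0.055 in CTL and -0.13, 0.072 and 0.13 in H2A.Z dKO replicates 1, 2 and 3. H2A.Z dKO replicate 1 was thus below all other libraries and replicates 2 and 3 above them.

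Most intervals with the site, 2329, lay away from promoters. Of these 110 had a higher and 41 a lower count below that p with all libraries (6.48%, against 6.15% of intervals there without the site), and the library deviations were -0.031, 0.032 and -0.064 in CTL and -0.17, 0.11 and 0.17 in H2A.Z dKO. All intervals away from promoters had medians of 0.012, -0.0039 and 0.0036 in CTL and -0.125, 0.091 and 0.064 in H2A.Z dKO. Without H2A.Z dKO replicate 1 the shares with and without the AP-1 site there were 14.0% and 8.92%, while at promoters, with 728 such intervals, they were 6.32% and 6.51%. The median log2 fold changes with and without the site in that fit were 0.16 and 0.063 away from promoters, and 0.0024 and -0.041 at promoters. For comparison, the CArG box with all libraries had 16 higher and 23 lower intervals of 567 (6.88%, against 4.93% without it), and 29 and 24 without H2A.Z dKO replicate 1 (9.35%, against 7.93%). The Egr1 site GCGTGGGCG had 4 higher and 3 lower of 289 with all libraries (2.42%, against 4.97%), and 3 and 25 without H2A.Z dKO replicate 1 (9.69%, against 7.94%). The E-box CACGTG, which Myc binds, had 47 and 49 of 2892 with all libraries (3.32%, against 5.08%), and 70 and 120 without that library (6.57%, against 8.06%). TATAAA intervals away from promoters had 61 higher and 56 lower of 1988 (5.89%, against 6.22% without TATAAA), and 148 and 42 without that library (9.56%, against 9.54%). The difference between intervals with and without a motif was not tested.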
